A study of Mus musculus with 8 samples.

Results

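The SoxC genes *Sox4*, *Sox11* and *Sox12*, the SoxD genes *Sox5*, *Sox6* and *Sox13* and the SoxF genes *Sox7*, *Sox17* and *Sox18* were followed in mRNA of the fetal mouse bowel. They were found by their symbols, and each of the 9 genes had 1 row among the 29092 genes of the count table. Bowels, stomach to anus, came from E13.5 embryos of matings between heterozygous *Ednrb-EGFP* and wild-type C57BL/6J mice, and the labels give the genotype as wild-type. All cells were sorted from GFP+ bowels, so both populations carried the *Ednrb-EGFP* reporter, in which a regulatory region of the endothelin receptor B gene drives green fluorescent protein. The GFP+ cells are enteric neural crest-derived cells (ENCDCs), the precursors of bowel neurons and glia, and the GFP- gut cells are the aggregate of every other cell type of the bowel. There were 4 ENCDC libraries and 4 gut libraries, each from 750 pg of RNA that was pooled over samples where needed, so p-values measure the spread between these libraries. The comparison asked which of these Sox genes differed between ENCDCs and the surrounding gut cells.

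Sox proteins bind the minor groove of DNA through a high mobility group (HMG) box and are sorted into groups by the sequence of that box. SoxC proteins are transcriptional activators of neural progenitors and young neurons, where they act on neuronal genes such as *Tubb3*. SoxD proteins lack an activation domain of their own, pair through a coiled coil and modify the action of other Sox proteins, best known with Sox9 in cartilage and with SoxE proteins in the neural crest and its glia. SoxF proteins direct the formation of endothelium, and Sox17 also specifies definitive endoderm, the source of the gut epithelium.

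A stretch of the HMG box is shown for each gene, since that box defines the 3 groups. It is the 45 bases of coding sequence from GENCODE M21 (mm10) that begin where *Sox4* and *Sox17* share their longest run, with the best ungapped match of the same length in each other gene. Capitals mark bases that differ from *Sox4*, and each stretch lies within 1 exon.
*Sox4* (chr13:28952791-28952835, - strand): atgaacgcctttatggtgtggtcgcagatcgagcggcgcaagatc
*Sox11* (chr12:27342208-27342252, - strand): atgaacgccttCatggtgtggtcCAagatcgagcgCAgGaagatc
*Sox12* (chr2:152397525-152397569, - strand): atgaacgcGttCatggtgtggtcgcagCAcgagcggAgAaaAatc
*Sox5* (chr6:143841223-143841267, - strand): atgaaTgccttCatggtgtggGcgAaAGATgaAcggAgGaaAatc
*Sox6* (chr7:115489712-115489756, - strand): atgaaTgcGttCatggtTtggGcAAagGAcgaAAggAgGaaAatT
*Sox13* (chr1:133385515-133385559, - strand): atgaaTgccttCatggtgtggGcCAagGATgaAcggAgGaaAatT
*Sox7* (chr14:63943900-63943944, + strand): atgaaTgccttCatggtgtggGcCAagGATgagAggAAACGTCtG
*Sox17* (chr1:4493149-4493193, - strand): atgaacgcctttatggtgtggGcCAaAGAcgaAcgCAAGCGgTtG
*Sox18* (chr2:181671231-181671275, - strand): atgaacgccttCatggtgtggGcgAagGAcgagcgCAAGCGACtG
Within a group the stretches were alike at 82.2% to 86.7% of bases for SoxC, 84.4% to 93.3% for SoxD and 77.8% to 86.7% for SoxF. Pairs from different groups were alike at 62.2% to 80.0% of bases. The longest run of identical bases between any pair of the 9 genes was 48 bases, in the coding sequences of *Sox4* and *Sox11*, so a read that lay wholly inside such a run could have come from either gene.

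The 8 libraries held 13250893 to 13267220 counts each, since the authors had brought them to 1 depth. Pearson correlations across genes, which are not independent replicates, were 0.921 to 0.962 among ENCDC libraries, 0.951 to 0.959 among gut libraries and 0.822 to 0.841 between them. Cell type markers were checked against the sort. All 8 genes of enteric crest progenitors and all 9 genes of young neurons were higher in ENCDCs, and all 10 mesenchymal, 8 smooth muscle, 8 macrophage and 7 erythroid genes were lower. With any 1 library left out, 7 or 8 crest genes and 9 or 10 mesenchymal genes were called, and the other counts stayed the same. *Tfap2b* of the crest list had 0 counts in every gut library. It passed the filter on low counts, given below, through ENCDCs alone, so its direction was not independent of that filter. ENCDC replicate 3 stood apart. Its summed mesenchymal markers reached 20510 normalized counts against 2951 to 8385 in the other ENCDC libraries, and its summed smooth muscle markers reached 10060 against 1557 to 3486. Results are given with and without it where it mattered. In bulk RNA, fewer cells of a type and less RNA per cell cannot be told apart.

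Of the 9 genes, *Sox4*, *Sox11* and *Sox5* were higher in ENCDCs, *Sox7* and *Sox18* were lower, and *Sox12*, *Sox6*, *Sox13* and *Sox17* were not called. All 9 passed the filter on low counts, by which 1 population or the other needed to average 3 counts or more and to have 3 or more of its 4 libraries above 0. *Sox7*, *Sox17* and *Sox18* passed through the gut libraries alone, so their direction was not independent of the filter. A gene was called at an adjusted p under 0.05 from edgeR's quasi-likelihood test with Benjamini-Hochberg adjustment over 18866 genes. Of all those genes 37.9% were called, 17% as higher in ENCDCs and 20.9% as lower, against 5 of these 9 genes, 3 of them higher and 2 lower. The 5 called genes were also those whose libraries did not overlap between the populations, as was true of 38.2% of all genes tested. Without ENCDC replicate 3, when 41% of all genes were called, the calls among the 9 again numbered 3 higher and 2 lower. The median log2 fold change was 0.93 for SoxC, 0.88 for SoxD and -3.67 for SoxF, beside -0.04 for all genes tested. In groups of 3 the median is the value of 1 gene, here *Sox4*, *Sox6* and *Sox7*, and *Sox6* was not called and stood at 0.50 without ENCDC replicate 3.

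**Figure D1:**
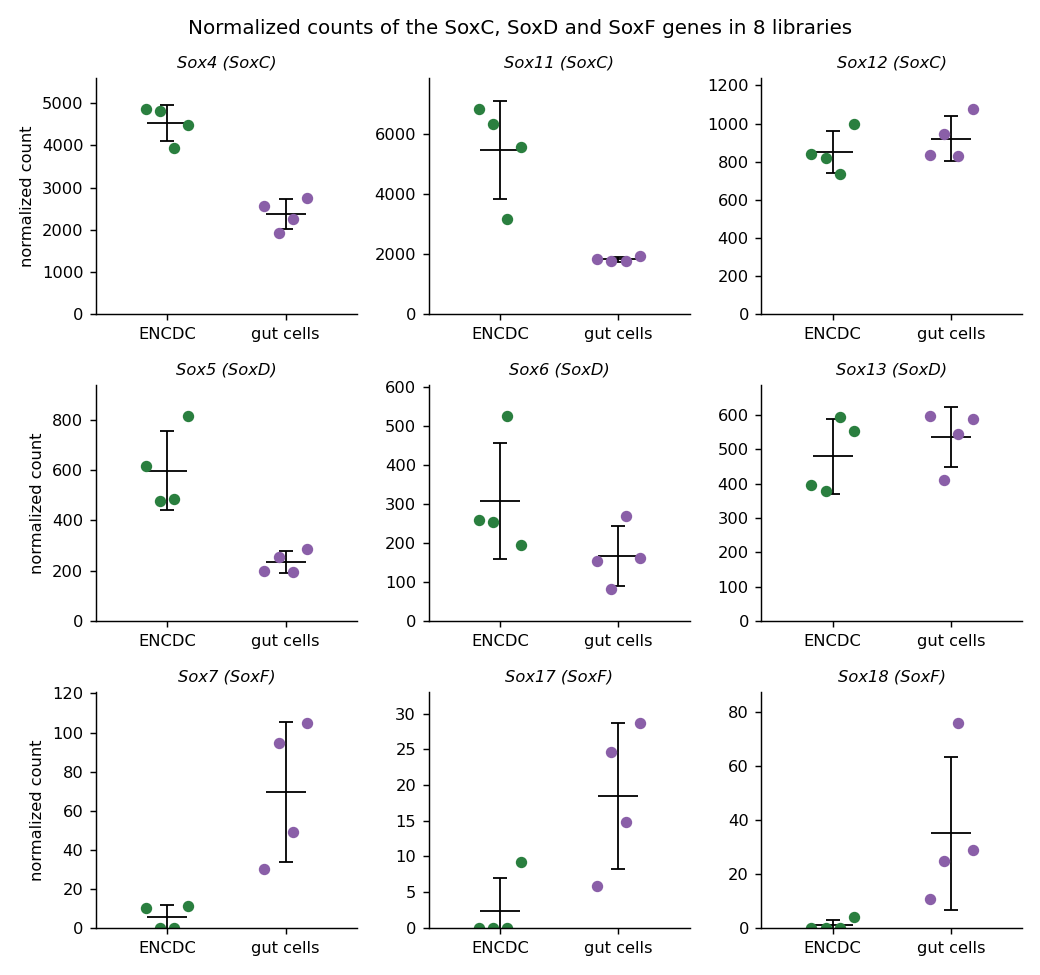
Normalized count (y axis, from 0, with its own scale in each panel) of each gene in the 4 ENCDC and the 4 gut libraries (x axis), 1 point per library, with the mean (long bar) and SD (error bar). The populations do not overlap for *Sox4*, *Sox11*, *Sox5*, *Sox7* and *Sox18*, and overlap for the other 4 genes.

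*Sox4*, which acts with *Sox11* in neuronal differentiation, had 4859, 4809, 3935 and 4492 normalized counts in the ENCDC libraries, in the order of replicates 1 to 4, and 2560, 1934, 2251 and 2748 in the gut libraries. Normalized counts are counts divided by the library's effective size and set to the mean effective size. Every ENCDC library lay above every gut library. The population means were 4524 ± 425 and 2373 ± 357 (SD, n = 4 each), which differed by 0.93 on the log2 scale (SE 0.12, edgeR adjusted p = 0.000111), or 1.91-fold with a 95% interval of 1.59 to 2.29. *Sox4* was thus also an abundant transcript in gut cells. Exons of *Sox4* share 2616 bases with the long non-coding RNA *Gm26735* on the opposite strand, and the library kits do not keep strand, so reads there cannot be assigned to either gene. No value of *Gm26735* was analysed here.

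*Sox11*, the SoxC gene with the largest difference, had 6822, 6323, 3159 and 5564 normalized counts in the ENCDC libraries and 1828, 1773, 1784 and 1949 in the gut libraries. The ENCDC libraries were all higher but spread widely, with a coefficient of variation of 29.7% against 4.39% in gut libraries, and replicate 3 was the lowest. Its log2 fold change was 1.58 (SE 0.20, edgeR adjusted p = 8.4e-05), or 2.98-fold with a 95% interval of 2.21 to 4.02. Without ENCDC replicate 3 it was 1.77 (SE 0.09, edgeR adjusted p = 4.39e-08). *Sox11* was the only one of the 3 genes called higher that also passed edgeR's test against a 2-fold change, by which 16% of all genes were called.

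*Sox12*, the SoxC member known as the weakest activator of the group, had 839, 819.7, 737 and 1000 normalized counts in the ENCDC libraries and 833, 945, 832 and 1075 in the gut libraries. The populations overlapped. A log2 fold change of -0.12 was found (SE 0.13, edgeR adjusted p = 0.53), with a 95% interval of -0.41 to 0.18, so a 2-fold difference in either direction lay outside the interval.

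Promoters of *Sox4* and *Sox11*, the SoxC genes that were higher together, are shown as up to 250 bases before the RefSeq start (GRCm38.p6), read in the direction of the gene, and that of *Sox4* is cut to the 236 bases outside its GENCODE exon. Capitals mark the CCAAT box (CCAAT, or ATTGG on the other strand) and the GC box (GGGCGG, or CCGCCC on the other strand).
*Sox4* (chr13:28953714-28953949, - strand): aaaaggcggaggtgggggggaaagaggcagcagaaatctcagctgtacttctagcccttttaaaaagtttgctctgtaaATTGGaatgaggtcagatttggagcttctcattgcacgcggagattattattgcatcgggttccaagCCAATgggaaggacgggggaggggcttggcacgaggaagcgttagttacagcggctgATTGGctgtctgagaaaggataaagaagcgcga
*Sox11* (chr12:27342719-27342968, - strand): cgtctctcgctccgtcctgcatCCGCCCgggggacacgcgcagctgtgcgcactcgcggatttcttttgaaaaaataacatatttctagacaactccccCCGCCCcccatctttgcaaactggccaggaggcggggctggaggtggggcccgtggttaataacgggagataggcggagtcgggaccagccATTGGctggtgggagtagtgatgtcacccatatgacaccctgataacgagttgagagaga
The *Sox4* stretch held 3 CCAAT boxes and 0 GC boxes, and the *Sox11* stretch held 1 CCAAT box and 2 GC boxes. Over the full 250 bases *Sox4* held 4 CCAAT boxes and 0 GC boxes. Over all 32851 RefSeq promoters of 250 bases, 33.8% held a CCAAT box and 32.7% a GC box on either strand, so neither motif was rare. Neither promoter held TATAAA on either strand, which 12.4% of all promoters did. GC content was 50.8% for *Sox4* and 58.0% for *Sox11* over 250 bases, beside a median of 52.4%. Promoter sequences matched 6 of the 9 genes.

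*Sox5*, which encodes a SoxD protein of neural crest and cartilage, had 614, 478, 484 and 814 normalized counts in the ENCDC libraries and 198, 256, 195 and 285 in the gut libraries. No gut library reached the lowest ENCDC library. ENCDCs were higher by 1.35 on the log2 scale (SE 0.22, edgeR adjusted p = 0.000528), or 2.56-fold with a 95% interval of 1.84 to 3.55. *Sox5* shares 1330 exon bases with *Sox5os1*, an antisense gene for which no value was analysed here.

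*Sox6*, which acts with *Sox5* in cartilage and glia, had 258, 254, 525 and 194 normalized counts in the ENCDC libraries and 155, 82.7, 270.4 and 160.4 in the gut libraries. Replicate 3 was the highest library of both populations, and the populations overlapped. For *Sox6* the log2 fold change was 0.88 (SE 0.38, edgeR adjusted p = 0.0941) with a 95% interval of 0.04 to 1.73. The value turned on single libraries, since it was 0.50 without ENCDC replicate 3 (edgeR adjusted p = 0.264), and leaving out gut replicate 3 gave 1.22 (edgeR adjusted p = 0.0381).

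*Sox13*, the SoxD gene with the highest level per length, had 396, 379, 595 and 553 normalized counts in the ENCDC libraries and 598, 409.7, 546 and 590.1 in the gut libraries. These ranges nearly coincided. No difference was called at a log2 fold change of -0.16 (SE 0.19, edgeR adjusted p = 0.568), with a 95% interval of -0.58 to 0.27. The lowest values of *Sox4*, *Sox11* and *Sox12* among ENCDC libraries and the highest of *Sox6* and *Sox13* were all in replicate 3, the library with the most mesenchymal and smooth muscle transcript, and the part of those transcripts in these values was not tested.

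*Sox7*, a SoxF gene of vascular endothelium, had 10.2, 0, 0 and 11.4 normalized counts in the ENCDC libraries and 30.1, 94.5, 49.3 and 105 in the gut libraries. All gut libraries were higher, although they differed among themselves by more than 3 times. The sum over 4 libraries was 21 counts in ENCDCs and 283 in gut cells. *Sox7* thus had a log2 fold change of -3.67 (SE 1.01, edgeR adjusted p = 0.0147), and the ENCDC mean was 7.71% of the gut mean.

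*Sox18*, which acts upstream of *Prox1* in lymphatic endothelium, had 0, 0, 0 and 4.13 normalized counts in the ENCDC libraries and 10.7, 24.6, 76.0 and 28.7 in the gut libraries. Gut replicate 3 was the highest. Its log2 fold change of -4.93 (SE 1.19, edgeR adjusted p = 0.00719) rested on 4 counts in ENCDCs against 142 in gut cells. Counts this low leave the size of the difference imprecise, with a 95% interval of 0.00533 to 0.201 for the ratio of ENCDCs to gut cells.

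*Sox17*, the SoxF gene of endoderm and arterial endothelium, had 0, 0, 0 and 9.30 normalized counts in the ENCDC libraries and 5.83, 24.6, 14.8 and 28.7 in the gut libraries. ENCDC replicate 4 lay above gut replicate 1, so the populations overlapped. At -2.93, its log2 fold change was not called (SE 1.28, edgeR adjusted p = 0.0953), on 9 counts in ENCDCs and 75 in gut cells. Without ENCDC replicate 4 it was called (edgeR adjusted p = 0.00504), with 0 counts in the other 3 ENCDC libraries. *Sox17* shares 804 exon bases with *Gm37587* on the opposite strand, for which no value was analysed here.

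**Figure D2:**
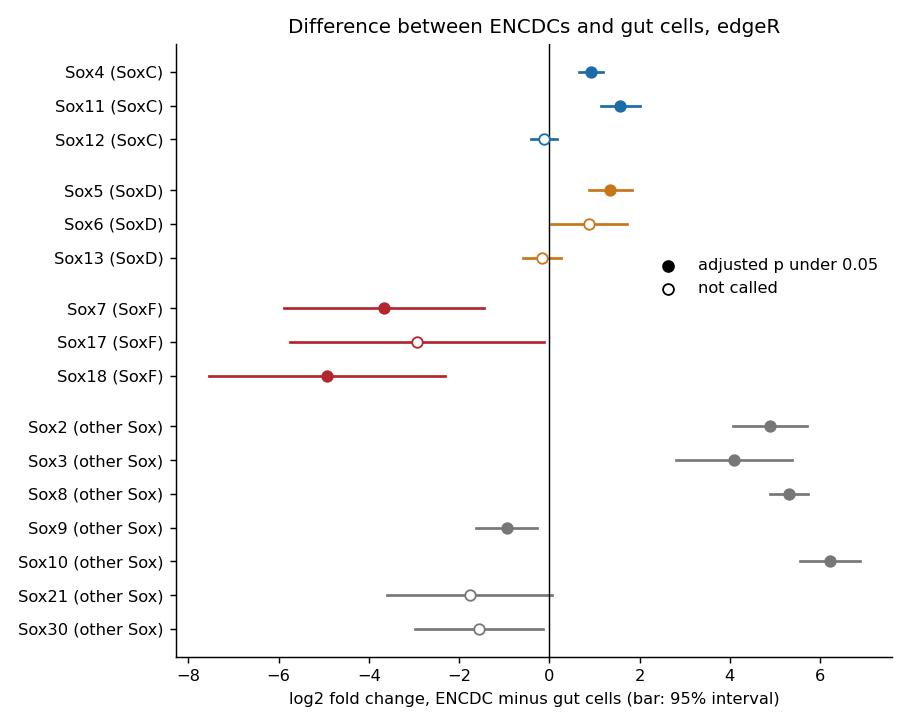
Difference between ENCDCs and gut cells on the log2 scale (x axis) for the 9 genes and for the 7 other Sox genes tested (y axis), with the 95% interval as a bar, filled where edgeR's adjusted p was under 0.05. *Sox11* at 1.58 and *Sox5* at 1.35 lie well below *Sox10* at 6.23, and the SoxF genes lie to the left of 0.

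Levels were compared between genes per kilobase of merged exon length, as normalized counts per kb. In ENCDCs *Sox4* stood at 943 ± 88.6, *Sox11* at 658 ± 195, *Sox12* at 191 ± 24.7, *Sox13* at 112 ± 25.3, *Sox5* at 41.6 ± 10.95 and *Sox6* at 20.8 ± 9.96 (SD, n = 4). *Sox7* stood at 1.63 ± 1.89, *Sox18* at 0.638 ± 1.28 and *Sox17* at 0.487 ± 0.974 (SD, n = 4). Among neighbours in this order, libraries overlapped between *Sox4* and *Sox11*, between *Sox5* and *Sox6*, and among the SoxF genes. In gut cells the order began with *Sox4* at 495 ± 74.5, *Sox11* at 221 ± 9.69 and *Sox12* at 207 ± 26.0 (SD, n = 4). *Sox13* followed at 124 ± 20.2, *Sox18* at 21.6 ± 17.5, *Sox7* at 21.1 ± 10.9, *Sox5* at 16.3 ± 3.08, *Sox6* at 11.3 ± 5.22 and *Sox17* at 3.88 ± 2.15 (SD, n = 4). There *Sox11* overlapped with *Sox12*, and from *Sox18* down to *Sox17* each gene overlapped with the next.

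The makeup of each group is given as a description with no test. Summed SoxC levels were 1792 ± 295 normalized counts per kb in ENCDCs and 922 ± 96.2 in gut cells, summed SoxD levels 174 ± 33.8 and 152 ± 22.6, and summed SoxF levels 2.76 ± 3.75 and 46.6 ± 20.8 (SD, n = 4 each). *Sox4* made up 50.1% to 60.1% of SoxC in ENCDC libraries and 48.7% to 56.8% in gut libraries, ranges that overlapped. *Sox11* made up 27.8% to 40.6% of SoxC in ENCDC libraries and 22.4% to 25.7% in gut libraries, and *Sox12* 9.31% to 12.3% against 19.9% to 25.6%. For SoxD, *Sox13* made up 60.4% to 66.7% in ENCDC libraries and 79.9% to 85.1% in gut libraries, while *Sox5* made up 16.3% to 28.6% against 8.47% to 15.0%. The share of *Sox6* was 6.62% to 17.1% in ENCDC libraries and 4.71% to 11.5% in gut libraries. In gut libraries *Sox7* made up 23.02% to 58.5% of SoxF and *Sox18* 31.0% to 72.2%, with *Sox18* leading in gut replicate 3 and *Sox7* in the other 3. In ENCDCs only replicates 1 and 4 held SoxF counts, all of them from *Sox7* in replicate 1, while *Sox7* made up 43.4% in replicate 4. Per coding length in place of exon length, *Sox11* stood above *Sox4* in ENCDCs, at 4613 ± 1370 against 3427 ± 322 normalized counts per kb (SD, n = 4 each), and *Sox7* above *Sox18* in gut cells, at 61.2 ± 31.4 against 31.0 ± 25.1 (SD, n = 4 each). Libraries of both pairs overlapped. *Sox5* and *Sox6* then also stood above *Sox7* and *Sox18* in gut cells, and *Sox17* above *Sox18* in ENCDCs. Per coding length *Sox13* stood only just above *Sox5* in ENCDCs, at 261 ± 59.4 against 255 ± 67.2 (SD, n = 4 each), with overlapping libraries. The *Sox5* share of SoxD per coding length was 27.85% to 47.85% in ENCDC libraries and 17.05% to 29.91% in gut libraries. Those ranges overlapped.

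**Figure D3:**
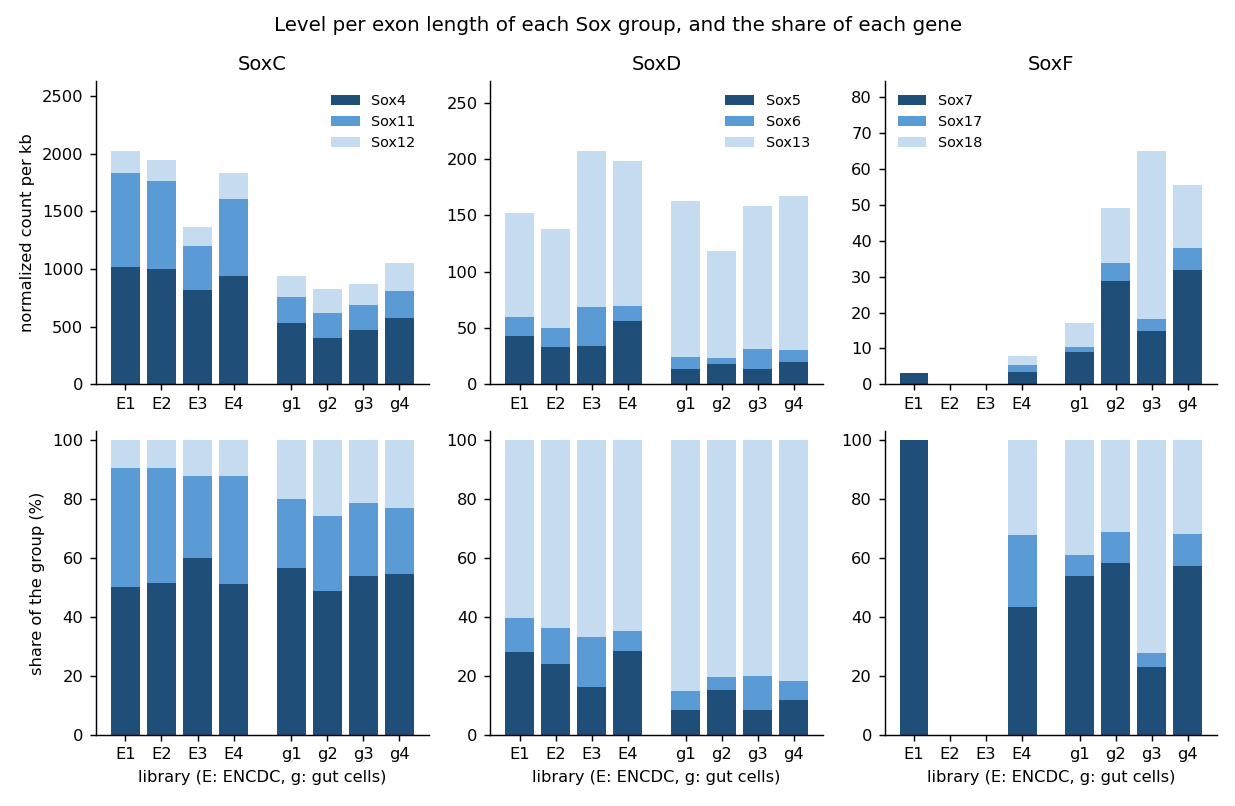
Normalized count per kb of merged exon length (upper row) and share of each gene in its group in percent (lower row), stacked by gene, for each of the 4 ENCDC (E) and 4 gut (g) libraries (x axis), in 3 columns for SoxC, SoxD and SoxF. ENCDC replicates 2 and 3 have no SoxF count and so no share, and the *Sox13* share of SoxD is lower in every ENCDC library than in every gut library.

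Among the 10 other Sox genes 7 were tested, of which 4 were higher in ENCDCs and 1 was lower, with a median log2 fold change of 4.09. Over all genes tested the shares called were 17% higher and 20.9% lower. *Sox10*, the SoxE gene that keeps ENCDCs as progenitors, averaged 5438 ± 321 normalized counts in ENCDCs against 72.5 ± 39.5 in gut cells (SD, n = 4 each). *Sox8*, its SoxE relative, had a log2 fold change of 5.32, and the SoxB1 genes *Sox2* and *Sox3* of neural progenitors had 4.89 and 4.09. *Sox3* passed the filter on low counts through ENCDCs alone, so its direction was not independent of that filter. *Sox9*, the SoxE partner of the SoxD proteins in cartilage, averaged 104 ± 45.6 normalized counts in ENCDCs against 200.4 ± 13.6 in gut cells (SD, n = 4 each). Its log2 fold change was -0.95 (edgeR adjusted p = 0.0301). That call was lost without any 1 library other than ENCDC replicate 3, with edgeR adjusted p of 0.0514 to 0.0712. *Sox21* and *Sox30* had log2 fold changes of -1.77 and -1.56 and were not called, and *Sox1*, *Sox14* and *Sox15* had too few counts. *Sox8*, *Sox15* and *Sox21* share exon bases with genes on the opposite strand.

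Among genes that act with SoxC proteins or downstream of them in neurons, 11 were tested, of which 8 rose in ENCDCs and 2 fell, with a median log2 fold change of 2.90. By comparison, 17% of all genes tested were called higher and 20.9% lower. *Tubb3*, which encodes a neuronal tubulin and is a SoxC target, had a log2 fold change of 6.68. *Stmn1*, a microtubule regulator, had 1.35, and *Tead2*, a partner of YAP, had 0.58. *Isl1*, a LIM homeodomain factor, fell by 3.25 on the log2 scale. *Neurod1*, a factor of neurons and enteroendocrine cells, had 0 counts in ENCDCs and 82 in gut cells, at least 27.3-fold lower when ENCDCs are set at 3 counts over the 4 libraries. At that bound the list's median was again 2.90. *Neurod1* passed the filter on low counts through the gut libraries alone. *Hes5* and *Pou3f3*, counted among those that rose, passed it through ENCDCs alone. The directions of these genes were thus not independent of the filter. *Neurod1*, *Tead2* and *Hes5* share exon bases with genes on the opposite strand.

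Cartilage matrix genes, which SoxD proteins raise together with Sox9 in chondrocytes, went both ways. Of 10 tested, 2 rose in ENCDCs and 3 fell, with a median log2 fold change of -0.95. Of all genes tested 17% were called higher and 20.9% lower, so these counts lay near the shares over all genes. *Col2a1* and *Col9a3*, which encode collagens of cartilage, had log2 fold changes of 1.81 and 3.64, and *Col9a3* shares exon bases with *Tcfl5* on the opposite strand. The fibrillar collagen genes *Col11a1* and *Col27a1* had log2 fold changes of -1.16 and -2.08.

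Partners and targets of SoxF proteins also went both ways, with 4 of 9 tested higher in ENCDCs, 2 lower and a median log2 fold change of 0.71. That median was 0.42 without gut replicate 2 and 1.31 without gut replicate 3. Shares called over all genes tested were 17% higher and 20.9% lower. *Mef2c*, a MADS-box factor that SoxF proteins activate in vessels, averaged 2825 ± 600.0 normalized counts in ENCDCs against 622 ± 171 in gut cells (SD, n = 4 each). Its log2 fold change was 2.18. *Notch1*, a receptor of arterial fate, had a log2 fold change of 1.54. *Vcam1*, an adhesion gene, and *Efnb2*, which encodes an arterial ephrin, had log2 fold changes of -3.87 and -1.02. *Notch1* and *Vcam1* share exon bases with genes on the opposite strand. *Mef2c* and *Notch1* thus had the opposite direction to *Sox7* and *Sox18*.

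Markers of endothelium and of endoderm, in which SoxF genes are known to act, were mostly lower in ENCDCs. Of 14 endothelial markers tested, 8 were lower in ENCDCs and 1 was higher, against 20.9% and 17% of all genes tested. The list's median log2 fold change was -2.29. *Kdr*, which encodes a VEGF receptor, was the exception at 1.40, while *Eng*, *Tek* and *Egfl7* had log2 fold changes of -3.34, -5.51 and -0.95. The summed endothelial markers were 922 to 1468 normalized counts in ENCDC libraries and 1646 to 2506 in gut libraries, or 281 to 588 and 1389 to 2186 with *Kdr* left out. *Erg* was the 1 marker of 15 with 0 counts in every ENCDC library, but it had 9 counts over all gut libraries, too few to test. *Cdh5*, the endothelial cadherin gene, had 3.05 to 12.1 normalized counts in ENCDC libraries and 16.7 to 44.4 in gut libraries. The count of lower endothelial markers was 12 without ENCDC replicate 3 and 4 without gut replicate 3, and it was 5 to 7 without any other library. *Egfl7* lost its call without any 1 library other than ENCDC replicate 3. *Eng* and *Egfl7* share exon bases with genes on the opposite strand. *Tek* passed the filter on low counts through the gut libraries alone, so its direction was not independent of that filter. Of 12 endodermal and epithelial markers, 11 were lower, among them *Epcam*, *Krt8*, *Cdh1* and *Krt18*. *Foxa2* and *Hnf4a*, counted among the 11, likewise passed the filter through the gut libraries alone. The count of lower markers in this list ran from 8 to 11 when any 1 library was left out. The 12 markers summed to 312 to 419 normalized counts in ENCDC libraries and 2539 to 3982 in gut libraries, with no marker at 0 in all ENCDC libraries. The part of these cells in the SoxF values was not tested.

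Markers of neurons and crest progenitors were higher in ENCDCs, as were *Sox4*, *Sox11* and *Sox5*. The summed markers of young neurons, among them *Tubb3*, *Gap43*, *Elavl4* and *Stmn2*, were 32830 to 41780 normalized counts in ENCDC libraries and 1113 to 1241 in gut libraries. The sums for enteric crest progenitors, among them *Ret*, *Gfra1* and *Erbb3*, were 41610 to 54760 and 2970 to 3327. In the gut libraries most of that sum was *Gfra1*, at 2328 to 2718 normalized counts. The markers' part in the values of these Sox genes was not tested. Of 6 mesothelial markers 5 were lower, and the summed macrophage and erythroid markers of ENCDC libraries were at most 123 and 1005 normalized counts, against at least 4472 and 48170 in gut libraries.

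**Figure D4:**
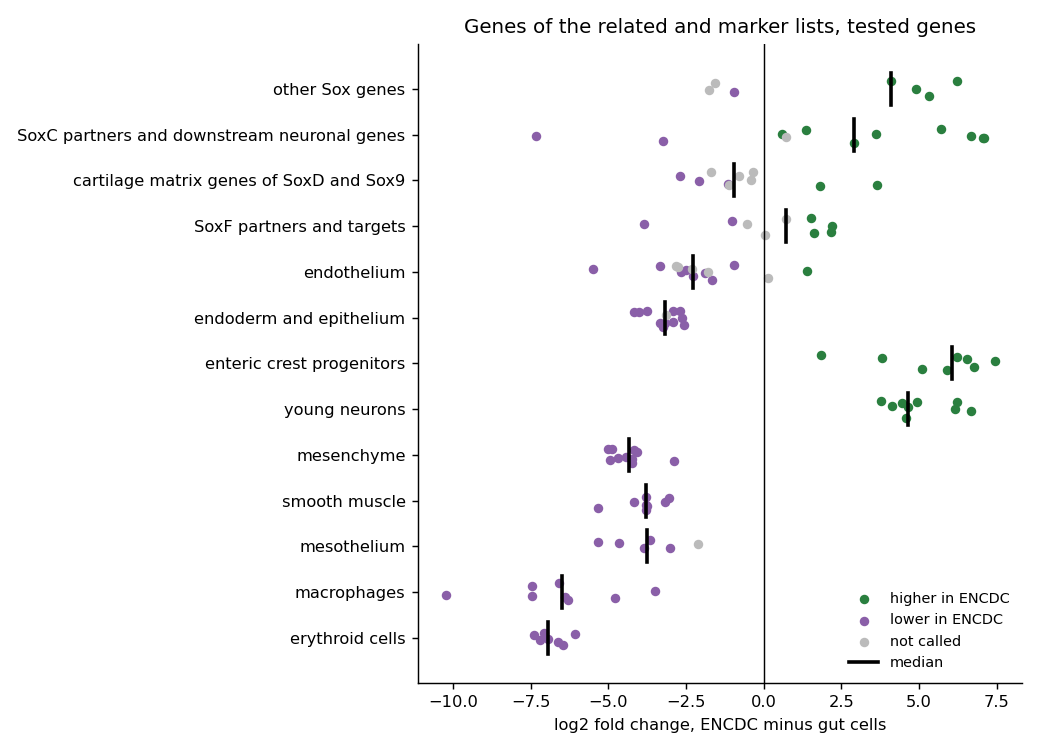
Difference between ENCDCs and gut cells on the log2 scale (x axis) in 13 lists (y axis), where a point is a tested gene coloured by its edgeR call, with the list's median as a black line. The endothelial and endodermal lists have medians of -2.29 and -3.16, and the SoxC list of neuronal genes has a median of 2.90.

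The patterns most like the gene of each group with the highest mean count over all libraries, uncorrected for length, were sought over the 8 libraries among 12167 genes that averaged 50 counts or more, by Pearson's r of log2(normalized count + 1), as a description in which the libraries and the contrast are shared. Nearest to *Sox11* were *Bcl7a*, *Nras* and *Ube2q2*, with r of 0.994, 0.994 and 0.992. Nearest to *Sox13* were *Hvcn1*, *Vps41* and *Zkscan7*, with r of 0.986, 0.961 and 0.948. Nearest to *Sox7* were *Bean1*, *Cachd1* and *Col4a6*, with r of 0.988, 0.978 and 0.977. Of these, the 3 near *Sox11* were higher in ENCDCs, the 3 near *Sox7* were lower and the 3 near *Sox13* were not called. The genes were chosen by their likeness over these same libraries, so their calls are not separate results.

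The 3' untranslated regions of these genes were searched for matches to miR-9, miR-27b, miR-137 and miR-488, which are among the miRNAs whose targets the study predicted. Matches to miR-124, whose targets the study also predicted, were not searched for. The 5p strand of miR-9 and the 3p strand of the others were used. A miRNA pairs with its targets through its seed, bases 2 to 8, in capitals here in the RefSeq mature sequences.
mmu-miR-9-5p: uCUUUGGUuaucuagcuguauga
mmu-miR-27b-3p: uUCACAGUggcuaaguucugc
mmu-miR-137-3p: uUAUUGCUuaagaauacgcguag
mmu-miR-488-3p: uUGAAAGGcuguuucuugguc
The matches to miR-137, which the study went on to delete in mice, are shown with the matching bases in capitals, from GENCODE M21 transcripts (mm10).
*Sox11* site 1 for miR-137-3p (chr12:27336489-27336511, - strand): accacagccacaaagAGCAATAg
*Sox11* site 2 for miR-137-3p (chr12:27336336-27336358, - strand): aaaaagaccaaacaaAGCAATAg
*Sox5* site 1 for miR-137-3p (chr6:143831462-143831484, - strand): agagtgcaggctcagAGCAATAa
*Sox6* site 1 for miR-137-3p (chr7:115474972-115474994, - strand): caggccatagctaatAGCAATAa
*Sox11*, with 6957 bases of 3' untranslated region, held 2 matches to miR-137, 2 to miR-488 and 1 to miR-27b. *Sox5* held 1 match to miR-137 and 2 to miR-488, and *Sox6* held 1 to each. These are the 3 genes with the longest such regions of the 9. *Sox4* held 1 match to miR-488, and *Sox13* and *Sox7* held 1 each to miR-27b. No match to any of the 4 seeds was found in *Sox12*, *Sox17* or *Sox18*, and none to miR-9 in any of the 9 genes. Of 15039 genes, 13.8% held a match to miR-9, 17.6% to miR-27b, 10.2% to miR-137 and 15.2% to miR-488. Among genes with a region within 20% of the length of that of *Sox11*, the shares were 46.4%, 53.6%, 32.4% and 51.9%. The share for miR-137 was 28.6% at the length of *Sox5* and 31.7% at that of *Sox6*. A match is not evidence of binding, and the smRNA-seq libraries were not analysed here.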

How the data were processed

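mRNA-seq of 4 ENCDC and 4 gut libraries was used, with groups and replicate numbers taken from the labels. Reads were aligned by the authors to mm10 with STAR 2.4.2a and normalized with PORT, and the deposited values are the minimum normalized read counts per gene, whole-number counts with totals of 13250893 to 13267220. The deposit's design text speaks of CPM of small RNAs, which the values and the labels contradict. PORT discards reads to equalize depth, so low counts lose precision, and the SMARTer and NexteraXT kits do not keep strand.

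Counts were tested in R 4.3.3 with edgeR 4.0.16 (TMM factors, quasi-likelihood F test, Benjamini-Hochberg adjustment over all tested genes, no covariate), while the study used voom and limma. Alternatives were limma 3.58.1 with voom, DESeq2 1.42.0, other factors and filters, edgeR's test of a 2-fold change, the replicate number as a block, coding length and leaving out each library; list counts without each library were added after the data were seen. The test was checked on simulated counts. Changes were planted there only in genes of higher mean count than *Sox17* and *Sox18*, so the check does not cover genes that low. Tables were made in Python 3.11.15. Levels per length used merged exons of GENCODE M21, which held 29035 of the 29092 gene IDs.

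The genes and lists were chosen with earlier results of these data known. The text names the 9 genes, the other Sox genes, up to 4 called genes of each list with the highest mean count, those called against most of their list, and the 3 genes most like the most abundant member of each group. *Erg*, *Cdh5*, *Tfap2b*, *Hes5*, *Pou3f3*, *Foxa2* and *Hnf4a* were named after their values were seen. Some list genes are counted in the lists but not reported here by name.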

Additional observations from a re-analysis of the deposited data

Results flagged for a closer look

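In 2 genes, 1 ENCDC library stood apart from the other 3 by a gap equal to the whole range. *Sox17* had a normalized count of 9.30 and *Sox18* one of 4.13 in ENCDC replicate 4, and both had 0 in ENCDC replicates 1 to 3. Each value rests on few counts, 9 and 4. The rule flags about 1 in 20 sets by chance when values are normally distributed, and 32 sets of 4 libraries were looked at. With 3 libraries at 0 the gap equals the range whatever the value of the other library, so that rate does not apply to these counts.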

How the results depend on the processing

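The log2 fold changes of the 9 genes kept their direction under every alternative, while the order of levels turned per coding length in places, with *Sox11* above *Sox4* and *Sox17* above *Sox18* in ENCDCs, and with *Sox5* and *Sox6* above *Sox7* and *Sox7* above *Sox18* in gut cells. Against a 2-fold change, 1 of the 9 genes was called higher, *Sox4* (log2 fold change 0.93, adjusted p = 1.0 from edgeR) and *Sox5* (1.35, adjusted p = 0.0942 from edgeR) lost their calls, and all genes called fell to 983 higher and 2031 lower. *Sox17* was called with voom and limma (-3.94, adjusted p = 0.00956). With the replicate number as a block, *Sox6* (0.89, adjusted p = 0.0366 from edgeR) and *Sox17* (-4.33, adjusted p = 0.0469 from edgeR) were called, and 5933 genes in all against 7158. Same-numbered libraries did not deviate together (correlations of -0.0361 to 0.0695 over 12167 genes). Neither the labels nor these correlations settle whether a shared number marks libraries from the same bowels.

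Leaving out each library in turn gave 3 to 4 of the 9 genes higher and 2 to 3 lower, and 2614 to 3527 higher and 3280 to 4213 lower among all genes. The log2 fold change ran from 0.82 to 1.01 for *Sox4*, 1.45 to 1.77 for *Sox11*, -0.21 to -0.04 for *Sox12*, 1.17 to 1.46 for *Sox5*, 0.50 to 1.22 for *Sox6*, -0.29 to -0.06 for *Sox13*, -4.32 to -3.26 for *Sox7*, -7.23 to -2.54 for *Sox17* and -8.14 to -4.22 for *Sox18*. The most negative values of *Sox17* and *Sox18* were without ENCDC replicate 4, when the remaining ENCDC libraries were at 0, and are fitted values, not bounds. Per coding length, *Sox11* made up 50.7% of SoxC in ENCDCs and 35.9% in gut cells, and *Sox13* 40.6% and 63.5% of SoxD, against 36.0%, 24.0%, 63.9% and 81.8% per exon length. The *Sox5* shares of SoxD overlapped between the populations per coding length but not per exon length. The SoxF genes summed to few counts in ENCDCs, 21 for *Sox7*, 9 for *Sox17* and 4 for *Sox18*, which limits the precision of their values.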
